A study of Rattus norvegicus with 9 samples.

Results

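Box C/D small nucleolar RNAs (snoRNAs) were followed in the cerebral cortex of ageing rats. The members were taken as the count rows of every Ensembl identifier that the supplementary lists of the study pair with a name starting SNORD or sno, and these were 15 of the 29516 identifiers in the files. All 15 come from the study's list of non-coding transcripts called differentially expressed (DE) in these same libraries. SNORD25, SNORD100 and SNORD103 stand in its list of genes with no identifier and were not analysed here. The differences between ages therefore describe members chosen for such differences, and the calls made below in fits across all genes are descriptions too, from which nothing is read about the members in any comparison. Of the 15 members, 14 had been listed for 6 against 12 months, 6 for 12 against 28 months, 5 for both and 0 for 6 against 28 months.

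Total RNA was depleted of ribosomal RNA, sequenced on the SOLiD platform and counted per gene. Per the paper, extraction used an RNeasy lipid tissue kit, the RNA was fragmented and cleaned on spin columns, and the cDNA was size selected. How evenly these steps recovered short RNAs in the libraries was not tested, so levels below are those of the libraries. All animals were male BN rats (Substrain BN/SsNOlaHSD) fed ad libitum and killed at 6, 12 or 28 months, with no other treatment. RNA from 2 rats was pooled for each library, so the spread between single animals was not measured, and a single strain and sex were used. The labels give 3 libraries per age, and p-values across genes measure the spread between these pools.

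Box C/D snoRNAs are short RNAs of the nucleolus that carry the C and D sequence boxes, assemble with fibrillarin and its partner proteins, and by base pairing guide the methylation of ribose in ribosomal and small nuclear RNA. In mammals most are cut out of introns of host genes, many of which encode ribosomal proteins or translation factors. SNORD116 and SNORD113 are different, since they lie in imprinted clusters of repeated copies, are strongly expressed in brain and have no established target in ribosomal RNA.

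Identical counts were deposited for sample 2 of the 6-month group and sample 3 of the 12-month group, which left 8 independent libraries. This shared library was shown on its own and left out of the comparisons between ages, which left 2 libraries at 6 months, 2 at 12 months and 3 at 28 months. Gene reads lay between 6513376 and 9196951 per library. The libraries with the most gene reads were 6 months sample 1, 6 months sample 3 and 28 months sample 1, and these also had the highest share of ambiguous reads, from 0.0707 to 0.0794% of mapped reads against 0.0356 to 0.0481% in the other 5. The neuronal genes Nptxr, Arc, Egr3 and Gria2 were detected in every library, and their summed normalized count was 1058 to 1083 at 6 months, 883 to 1127 at 12 months, 1062 to 1145 at 28 months and 876 in the shared library. Gria2, at 762 to 960, made up most of this sum. Nptxr was at 99.1 and 80.8 and Egr3 at 6.27 and 4.40 at 12 months, below each 6-month and 28-month library. The margin was small for Nptxr, whose next library was at 100.04, and Egr3 was at 8.00 or more in those libraries. Arc and Gria2 did not show this. Arc was at 61.7 and 35.8 at 12 months, 58.8 and 59.2 at 6 months and 24.6 to 43.2 at 28 months. Gria2 was at 960 and 762 at 12 months, 861 and 894 at 6 months and 929 to 952 at 28 months.

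RefSeq gene names (GRCr8) matched 9 of the 13 distinct member names, with snoU6-77 read as Snord10 and snoZ30 as Snord7. By position in that assembly, 6 names lay inside protein-coding genes. These were SNORD15 in Rps3, SNORD37 in Eef2, SNORD42 in Rpl23a, SNORD95 in Rack1, snoU6-77 in Eif4a1, and SNORD83 in Rpl3 or Ddx39b, depending on the copy. Promoters of translation genes often start within a run of pyrimidines, so the 30 bases around the annotated start, 15 on each side, are shown for 5 of the host genes, with any run of at least 8 C or T in capitals, read 5′ to 3′ on the strand of the gene from RefSeq sequence of GRCr8.
Rps3, chr1:163195762-163195791, minus strand: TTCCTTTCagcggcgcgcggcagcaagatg
Rack1, chr10:33670535-33670564, plus strand: ccttgctctccgagtatttccggttccggc
Eif4a1, chr10:54888588-54888617, minus strand: ggcgggcactccgccctagattctaaggat
Rpl3, chr7:113507976-113508005, minus strand: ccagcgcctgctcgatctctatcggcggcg
Ddx39b, chr20:3589637-3589666, minus strand: ggggcgagactggaaccggaagtgaaggca
Only the window of Rps3, the host of SNORD15, held such a run among these 5, and 11.4% of the 33469 windows in the table held one. The Rps3 run began 15 bases before the annotated start and ended short of it. Whether the host genes themselves differed between ages was not analysed here.

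Levels are normalized counts, that is, CPM after TMM scaling, and they are not divided by length. Mean levels over the 7 libraries of settled age ran from 863 for SNORD116 (ENSRNOG00000034896), which ranked 35 of 16283 genes, to 3.56 for snoZ30, which ranked 9986. The mean was lowest at 12 months for 14 of the 15 members, and the exception was SNORD16. The share of genes with this order was not counted, and most members had been listed for 6 against 12 months, so nothing is read from it. Both 12-month libraries lay below the other 6 libraries, the shared one included, for 11 members, while 5.55% of the 16283 genes showed this. The members left out of that count were SNORD16, SNORD37, snoZ30 and SNORD116 (ENSRNOG00000035757).

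**Figure D1:**
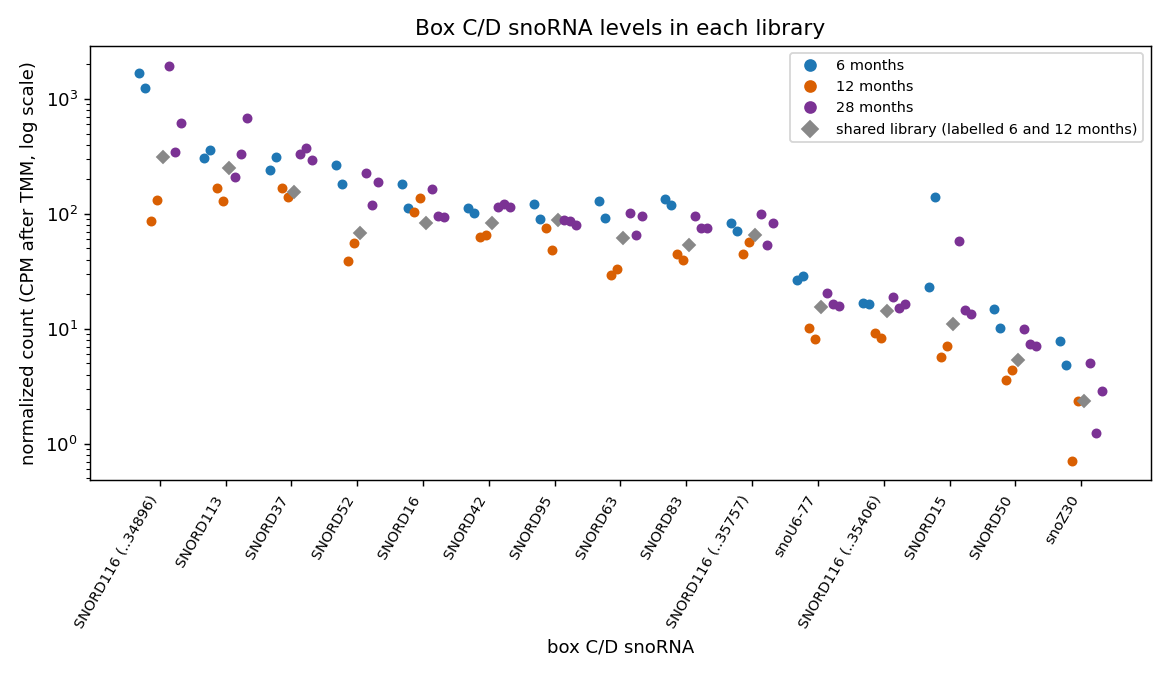
Normalized count (CPM after TMM, log scale) of each of the 15 box C/D snoRNAs in the 8 independent libraries, with 1 point per library, coloured by age, and the shared library as a grey diamond. The 12-month points are the lowest for most members, and SNORD116 (ENSRNOG00000034896) spans 86.2 to 1945.

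Among the imprinted brain snoRNAs, 1 identifier had a wide range, 22.6-fold between its lowest and highest library, and SNORD15 alone had a wider one, at 24.7-fold. SNORD116 (ENSRNOG00000034896) was at 1672 and 1246 at 6 months, at 86.2 and 133 at 12 months, at 312 in the shared library, and at 1945, 349 and 613 in 28 months samples 1, 2 and 3. Both 6-month libraries and all 3 28-month libraries lay above both 12-month libraries, and 28 months sample 1 was 5.58-fold above 28 months sample 2. The log2FC was -3.74 (SE 0.26) from 6 to 12 months, -0.59 (SE 0.51) from 6 to 28 months and 3.15 (SE 0.57) from 12 to 28 months.

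The other SNORD116 identifiers varied less. SNORD116 (ENSRNOG00000035757) was at 83.1 and 71.3 at 6 months, at 44.6 and 56.4 at 12 months, at 65.9 in the shared library and at 99.6, 53.6 and 82.7 at 28 months. SNORD116 (ENSRNOG00000035406) was at 16.8 and 16.3 at 6 months, at 9.12 and 8.26 at 12 months, at 14.4 in the shared library and at 18.8, 15.3 and 16.6 at 28 months. From 6 to 12 months their log2FC was -0.62 (SE 0.17) and -0.93 (SE 0.19). The first identifier did not keep a fixed ratio to the others. The level of ENSRNOG00000034896 was 20.1 and 17.5 times that of ENSRNOG00000035757 at 6 months, 1.93 and 2.36 times at 12 months, 4.73 times in the shared library and 19.5, 6.51 and 7.41 times at 28 months. The ratio of ENSRNOG00000035757 to ENSRNOG00000035406 varied less, from 3.50 to 6.83 over the 8 libraries. SNORD116 copies are alike in sequence, and how reads were divided between them is not given in the sources used here.

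SNORD113, from the other imprinted cluster, was at 306 and 357 at 6 months, at 168 and 129 at 12 months, at 248 in the shared library and at 209, 333 and 685 at 28 months. Its 12-month libraries were below all others, and its highest library was 28 months sample 3, unlike the other members. The log2FC was -1.16 (SE 0.18) from 6 to 12 months and 1.47 (SE 0.38) from 12 to 28 months.

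Guides of the large-subunit ribosomal RNA include SNORD15, SNORD37, SNORD50, SNORD52, SNORD63 and SNORD95. SNORD52 was at 268 and 184 at 6 months, at 38.6 and 56.0 at 12 months, at 68.0 in the shared library and at 229, 120 and 189 at 28 months. SNORD63 was at 129 and 91.9 at 6 months, at 29.5 and 33.3 at 12 months, at 62.0 in the shared library and at 101, 65.7 and 96.0 at 28 months. For both, the 12-month libraries lay below all others and the 6-month and 28-month ranges overlapped. Their log2FC was -2.26 (SE 0.24) and -1.83 (SE 0.20) from 6 to 12 months, and 1.93 (SE 0.26) and 1.49 (SE 0.21) from 12 to 28 months.

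SNORD37 was at 239 and 310 at 6 months, at 169 and 140 at 12 months, at 154 in the shared library and at 330, 375 and 295 at 28 months. For 13 members the shared library lay below both 6-month and above both 12-month libraries, beside 4.52% of genes. SNORD37 was 1 of 2 members, with SNORD16, that did not show this. Its log2FC was -0.84 (SE 0.18) from 6 to 12 months and 1.12 (SE 0.18) from 12 to 28 months. SNORD95 was at 121 and 90.7 at 6 months, at 75.1 and 48.0 at 12 months, at 88.8 in the shared library and at 88.6, 86.1 and 80.4 at 28 months, a narrow range at 28 months. SNORD50 was at 14.8 and 10.2 at 6 months, at 3.56 and 4.40 at 12 months, at 5.30 in the shared library and at 9.91, 7.32 and 7.09 at 28 months.

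SNORD15 differed most within one age. It was at 23.2 and 141 at 6 months, which is a 6.08-fold gap between libraries of that age, at 5.70 and 7.16 at 12 months, at 11.03 in the shared library and at 58.5, 14.5 and 13.4 at 28 months. Its log2FC from 6 to 12 months was -3.67 with an SE of 0.72, the largest SE of any member in that comparison.

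Guides of the small-subunit ribosomal RNA include SNORD16 and SNORD42. SNORD42 was at 113 and 102 at 6 months, at 62.8 and 65.5 at 12 months, at 84.0 in the shared library and at 115.3, 121.5 and 115.6 at 28 months. It was the 1 member of 15 with all 28-month libraries above all 5 younger ones, where 0.89% of genes showed this, and the gap to the highest 6-month library was small. SNORD16 was at 181 and 112 at 6 months, at 104 and 137 at 12 months, at 82.5 in the shared library and at 166, 96.5 and 93.1 at 28 months. Its ages overlapped, and its log2FC was -0.29 (SE 0.24), -0.31 (SE 0.27) and -0.01 (SE 0.24) in the 3 comparisons.

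Guides of U6 spliceosomal RNA are snoU6-77 and snoZ30. The level of snoU6-77 was 26.8 and 28.9 at 6 months, 10.1 and 8.12 at 12 months, 15.6 in the shared library and 20.7, 16.4 and 15.7 at 28 months, so that the 3 ages did not overlap. The level of snoZ30 was 7.84 and 4.82 at 6 months, 0.712 and 2.34 at 12 months, 2.37 in the shared library and 5.08, 1.24 and 2.87 at 28 months, with overlap between 12 and 28 months. SNORD83, which has no established target, was at 135 and 120 at 6 months, at 44.9 and 39.4 at 12 months, at 53.9 in the shared library and at 96.3, 74.8 and 74.7 at 28 months. Its ages did not overlap either. For snoU6-77 and SNORD83 alike, this leaves out the shared library, which lay below every 28-month library. If that library is 6 months old, the 6-month and 28-month ranges of both members overlap. The share of genes with 3 separate ages was not counted, so nothing is read from this. Libraries of 6 and 12 months stood apart, in either direction, for 45.5% of genes. Those of 6 and 28 months did so for 21.9%, and those of 12 and 28 months for 24.6%.

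From 6 to 12 months the edgeR quasi-likelihood test, at a false discovery rate of 0.05 over all genes, called 8 of the 15 members lower and 0 higher, where 0.883% of the 15966 genes tested were called lower. The 8 were SNORD113, SNORD116 (ENSRNOG00000034896), SNORD42, SNORD50, SNORD52, SNORD63, SNORD83 and snoU6-77. Of the members, 14 had been listed for this contrast. The median log2FC of the members was -1.61, beside -0.01 over all genes tested, and 14 members had 12-month libraries that did not overlap the 6-month ones, beside 22.4% of genes lower without overlap. The exact test called 13 members lower, beside 1.85% of genes. When the shared library was kept as labelled, 0 members and 0 genes in all passed the quasi-likelihood test, 12 members had an unadjusted p under 0.05, beside 3.01% of genes, and the edgeR exact test called 6 lower, beside 0.496% of genes. Without 12 months sample 1 the median log2FC of the members was -1.45, and without 12 months sample 2 it was -1.46. Each of these fits had a lone 12-month library.

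From 6 to 28 months the quasi-likelihood test called 0 members, where 0.206% of the 16042 genes tested were called, and 5 members had an unadjusted p under 0.05, beside 6.45% of genes. DESeq2 also called 0 members and 0.449% of genes, with 2 members and 3.72% of genes at an unadjusted p under 0.05. The exact test called 0 members and 0.86% of genes, with 5 members and 6.08% of genes at an unadjusted p under 0.05. The median log2FC was -0.34, beside -0.01 over all genes, with 10 members below 0 and 5 above. SNORD50, SNORD83, SNORD95 and snoU6-77 were lower without overlap, where 11.0% of genes were. SNORD42 was higher without overlap, where 10.8% of genes were. Without 28 months sample 1, 2 members were called lower, beside 0.785% of genes.

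From 12 to 28 months 3 members were called higher, SNORD37, SNORD52 and SNORD63, and 0 lower, where 0.0758% of the 15840 genes tested were called higher. The median log2FC was 1.01, beside 0.01 over all genes, and 12 members were higher without overlap, where 11.4% of genes were. The exact test called 10 members higher, beside 0.568% of genes, DESeq2 called 5, beside 0.391%, and the exact test with the shared library kept called 5, beside 0.206%. The count called moved with single libraries. It was 0 without 28 months sample 3, without 12 months sample 1 or without 12 months sample 2, where the quasi-likelihood test called 0 genes in all, with 12, 11 and 12 members at an unadjusted p under 0.05, beside 6.03, 4.62 and 6.16% of genes. It was 6 without 28 months sample 1 or without 28 months sample 2, beside 0.167 and 0.272% of genes called higher.

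**Figure D2:**
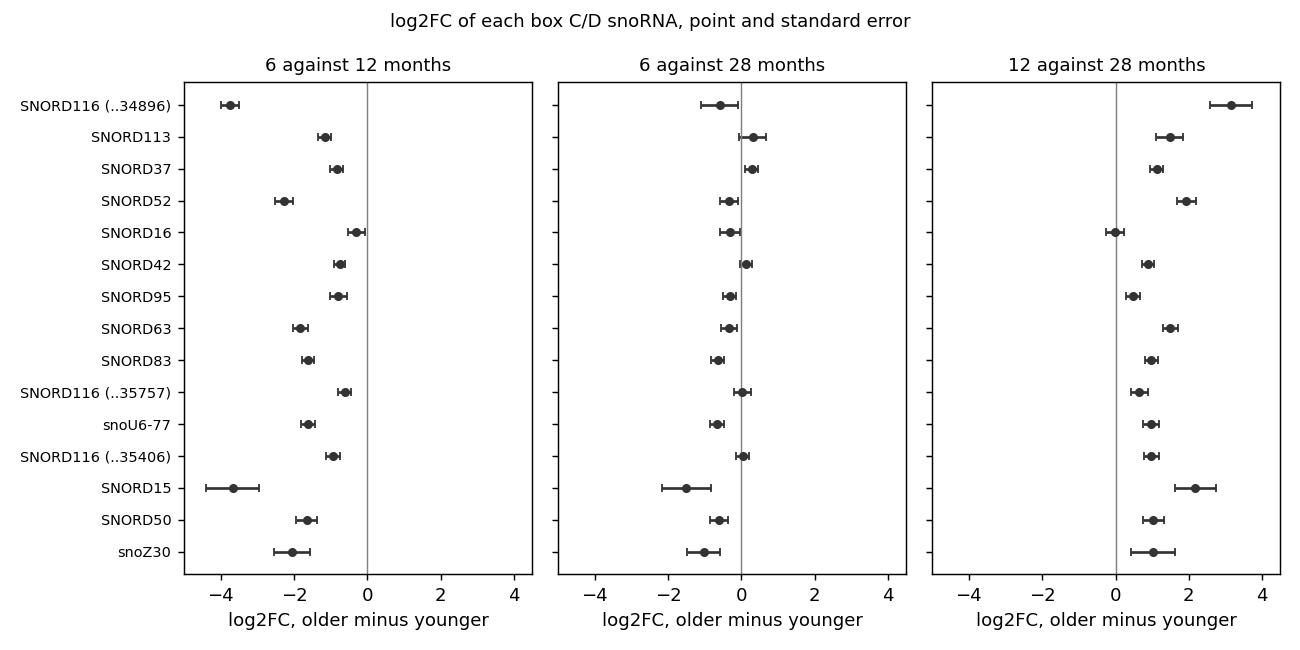
log2FC, older minus younger, of each box C/D snoRNA in the 3 comparisons, with points for the estimate and bars for its standard error. All 15 points lie below 0 from 6 to 12 months, and 14 of 15 lie above 0 from 12 to 28 months.

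Members were also compared between libraries of one age. At 28 months, sample 1 was the highest library for 12 of 15 members, sample 2 for 2 and sample 3 for 1, while 35.1% of genes were highest in sample 1. At 6 months sample 1 was above sample 3 for 11 members, beside 49.8% of genes. At 12 months sample 1 was above sample 2 for 6 members, beside 49.8% of genes. The summed normalized count of the members was 3339 and 2887 at 6 months, 853 and 867 at 12 months, 1268 in the shared library and 3493, 1729 and 2379 at 28 months. The 3 libraries with the most gene reads and the most ambiguous reads had the 3 highest sums. For 6 members those 3 libraries were each above the other 5, and 3.67% of genes showed this. The part of depth and ambiguous reads in the differences between ages was not tested.

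**Figure D3:**
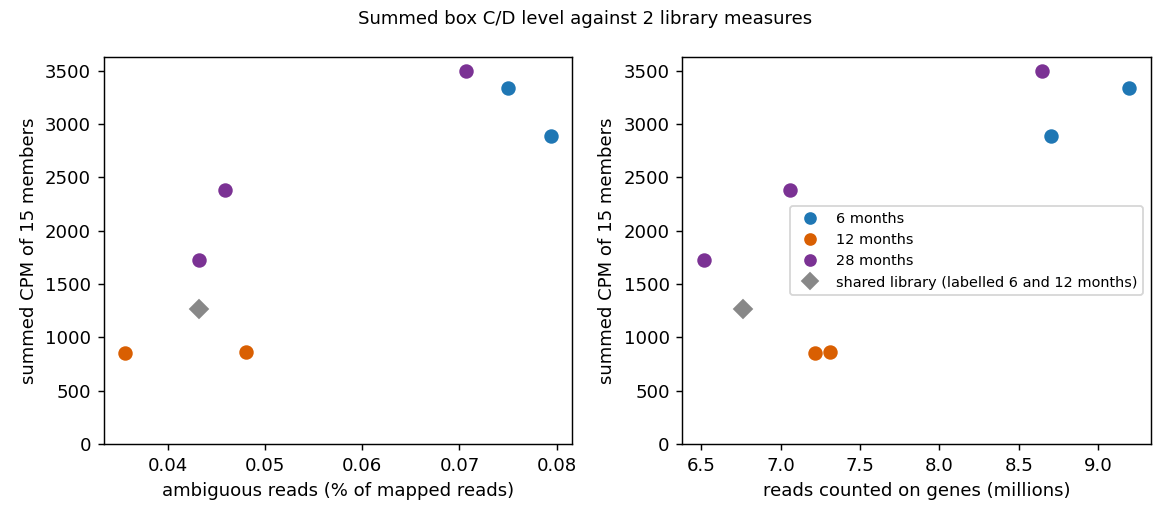
Summed normalized count of the 15 members (CPM) in the 8 libraries against the share of ambiguous reads (left) and the number of gene reads (right), with 1 point per library, coloured by age. The 3 libraries with at least 0.0707% ambiguous reads have sums of 2887 to 3493, and the other 5 have 853 to 2379.

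Other small RNAs of the study's lists were chosen on the same libraries. From 6 to 12 months the test called lower 28 of 36 H/ACA and Cajal body RNAs, which guide pseudouridylation of ribosomal and small nuclear RNA, 5 of 6 mitochondrial tRNAs and 2 of 6 other small RNAs, beside 0.883% of genes. The median log2FC was -2.20 for the H/ACA list, -1.74 for the tRNAs and -1.62 for the other small RNAs. The largest differences in the H/ACA list were those of the SNORA36 identifiers, with a log2FC of -5.38 (SE 0.74) and -4.40 (SE 0.52). U3, a box C/D RNA of ribosomal RNA processing that the name rule leaves out, was not called in any of the 3 comparisons, and its log2FC was -1.06 (SE 0.48), -0.73 (SE 0.31) and 0.33 (SE 0.28).

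From 6 to 28 months the median log2FC was -0.34 for the box C/D members and -1.29 for the H/ACA list, of which 6 were called lower, beside 0.199% of genes. Part of the H/ACA list had been listed by the study for 6 against 28 months, and 0 of the members had. The lists were thus chosen unequally for this contrast, and nothing is read from the gap between them or from the ratio below. The summed box C/D level was 0.355 and 0.381 of the summed H/ACA level at 6 months, 0.395 and 0.445 at 12 months, 0.416 in the shared library and 0.769, 0.538 and 0.734 at 28 months. All 28-month libraries were above all 5 younger ones, and this ordering holds whichever age the shared library has. It was seen for the sums and not for the medians. The median member level over the median H/ACA level was 2.57 in 28 months sample 1. That was below 12 months samples 1 and 2, at 3.35 and 3.71, while 28 months samples 2 and 3 lay above both. The ordering of the sums also rests on the imprinted members. Without SNORD116 and SNORD113, the 11 remaining members gave 0.134 and 0.158 at 6 months, 0.252 and 0.278 at 12 months, 0.206 in the shared library and 0.269, 0.304 and 0.303 at 28 months, so that 12 and 28 months overlapped.

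**Figure D4:**
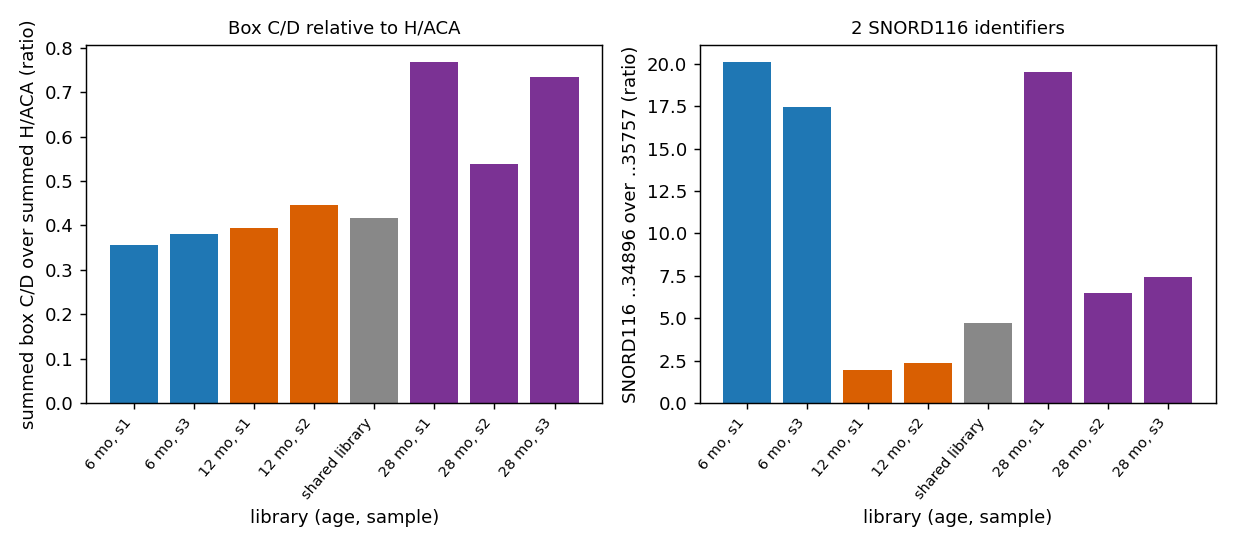
Left, summed normalized count of the 15 box C/D members over that of 36 H/ACA and Cajal body RNAs in each library; right, level of SNORD116 ENSRNOG00000034896 over that of ENSRNOG00000035757. Bars are single libraries, coloured by age, with the shared library in grey; the left ratio is 0.538 to 0.769 at 28 months and 0.355 to 0.445 in the younger libraries.

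Markers of other cells, summed within each type, stood highest in the 12-month libraries among those of settled age. Gfap, an astrocyte gene, was at 145 to 155 at 12 months, 72.4 to 89.2 at 6 months and 52.5 to 76.9 at 28 months, and at 151 in the shared library. The microglial genes Aif1 and Cd74 summed to 37.3 to 44.7 at 12 months, 10.2 to 10.8 at 6 months and 9.66 to 15.3 at 28 months. The plasma or liver genes Alb, Apob and Gc summed to 5.70 to 14.7 at 12 months, 0.544 to 0.573 at 6 months and 0.905 to 3.35 at 28 months. Gc alone did not follow this sum, at 0.285 in 12 months sample 1 and at 0.372 and 0.552 in 28 months samples 1 and 2. The haemoglobin gene LOC689064 was at 33.4 to 50.4, 22.9 to 31.4 and 17.2 to 28.8 at these ages. In the shared library the microglial sum was 28.2, the plasma or liver sum 13.0 and LOC689064 64.8, its highest value in any library. The microglial sum there was mostly Cd74, at 23.3. Aif1 was at 4.88 in the shared library, below both 6-month libraries, at 5.66 and 5.16. In bulk tissue, fewer cells of a type and less RNA per cell cannot be told apart, and the part of cell makeup in the snoRNA levels was not tested.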

How the data were processed

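The authors mapped the SOLiD reads with Bowtie to the rat genome (rn4 in the submitters' notes) and used HTSeq to count them on Ensembl genes, and what they deposited are unnormalized read counts. Tool versions and the strand setting are not given in the sources used here, so reads of host genes, antisense genes and near-identical copies cannot be told apart. Per the labels, RNA integrity numbers were above 8.

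The members and the comparison lists were chosen with earlier results of these data known. Names come from the study's supplementary lists, where transcripts marked as intronic or antisense to a gene were left out, which removed no member and 1 U4 entry; every member is named, and of the comparison lists the 2 called genes with the largest log2FC per list and comparison were eligible for naming, with U3. A gene entered a comparison when 1 or more of its libraries held 5 reads or more. Each age pair was fitted separately in edgeR 4.0.16 (R 4.3.3) with TMM scaling and the quasi-likelihood test, and with Benjamini-Hochberg adjustment over all genes at 0.05. All 15 members passed this filter. Unlike the study, the main fits leave out the library deposited under both ages. The SE was taken from the unshrunk log2FC and the F statistic. Alternatives were the edgeR exact test (prior df 28), DESeq2 1.42.0, RLE scaling, other filters, 1 fit over the 3 ages and each library left out. The scripts were tested on simulated data. A neuronal marker and the start window of a host gene are not reported here. Names of snoRNP proteins and host genes could not be matched to identifiers with the tables used here, and these genes, and oligodendrocyte markers, were not analysed here.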

Additional observations from a re-analysis of the deposited data

How the results depend on the processing

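No paired analysis was possible because the labels number the libraries in 1 series from p1 to p9, and the sample numbers within an age only follow the order of deposit and pair nothing. With the shared library kept as labelled, the members called were 0 from 6 to 12 months and the median log2FC was -1.08 (-1.08 also with the exact test on the same files), -0.11 (-0.11) from 6 to 28 months and 0.84 (0.84) from 12 to 28 months, where that exact test called 5 higher, beside 0.206% of genes. Members without overlap between ages, an alternative chosen after seeing the data, then numbered 2 from 6 to 28 months. No share of genes stands beside this count, so nothing is read from it. From 6 to 12 months the number was 0 by construction, since the same counts stand in both groups, and it says nothing about stability. The exact test without the shared library called 13 lower from 6 to 12 months, beside 1.85% of genes, and 10 higher from 12 to 28 months, beside 0.568%. DESeq2 called 5 higher in the latter, beside 0.391%. With a minimum of 10 reads in every library the median log2FC from 6 to 12 months was -1.39. With at least 1 read in any library 1 member was called lower from 6 to 28 months, beside 0.575% of genes, and 10 higher from 12 to 28 months, beside 0.488%. With at least 5 reads in total 5 were called higher from 12 to 28 months, beside 0.109%.

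Each library was left out in turn, in a fit over the 3 ages where a lone library is assumed to vary like the others. The median log2FC of the members then ran from -1.62 to -1.35, from -0.57 to -0.055 and from 0.89 to 1.07 in the 3 comparisons. The median kept its sign in each alternative run. Single members took the other sign in 1 of 239 alternative values from 6 to 12 months, 9 of 239 from 6 to 28 months and 5 of 239 from 12 to 28 months, and SNORD16 was among them each time. The number of libraries limits precision, and reads counted without molecular identifiers cover counting error only.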
